A study of Homo sapiens with 4 samples.

Results

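Metallothioneins are small cysteine-rich proteins that bind zinc, copper and cadmium and buffer the free metal in the cell. Their genes are transcribed through metal response elements, short promoter motifs that the transcription factor MTF1 binds when zinc is high, and they also answer to glucocorticoids, oxidants and inflammatory signals. MT1 and MT2A genes are active in many tissues and strongly so in liver, MT3 is best known from brain, and MT4 from stratified squamous epithelium. The probes described here were those annotated to MT1A, MT1B, MT1E, MT1X, MT2A, MT3 or MT4 alone, which gave 7 probes, 1 for each of the 7 genes, out of 31741 probes and 18365 genes with a probe of their own. Another 2 probes named only metallothionein genes and pseudogenes, and they are given apart. The genes were chosen as a family, with earlier results of these arrays known.

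HepG2 cells, an established human liver cancer line, and A549 cells, an established human lung adenocarcinoma line, were compared as control and after 6 h with 10 μM GSK343, a competitive inhibitor of the histone methyltransferase EZH2. The labels do not say what the control cells received. RNA was labelled with Cy5 and each of the 4 conditions had 1 Human OneArray Plus, so that no value below has a replicate and no test within a line was possible. An effect of GSK343 shared by both lines was not tested here. Values are the deposited intensities on a linear scale, and a difference is log2 of GSK343 minus log2 of control. As a yardstick of technical spread, probes of the same gene differed with an SD of 0.39 log2 units in HepG2 and 0.42 log2 units in A549, each after division by the square root of 2. The array medians lay between 449.8 and 498.8, and centring them would shift all A549 differences by -0.12 log2 units. The liver markers ALB, AFP, APOA1, APOB, APOH, AHSG, TTR, SERPINA1 and FGB read between 10638 and 373628 on the HepG2 control array over 12 probes, and between 37.0 and 1225 on the A549 control array. Of 7 probes of alveolar lung markers, only ABCA3, at 3058, reached the array's median in A549 control cells, and the surfactant genes SFTPA1, SFTPB and SFTPC did not. The leukocyte genes PTPRC and CD3E were dim on every array, with a median over 4 immune probes of 46.0 in HepG2 control and 35.1 in A549 control cells, while CD14 read 5138 and 3852.

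The 16 listed metallothionein entries lie on chromosome 16 between BBS2 and NUP93, and other genes among them were not looked for. Of the 16 entries, 11 are protein-coding and 5 are pseudogenes in the RefSeq annotation of GRCh38.p14. Upstream sequence was matched for 4 of the 7 genes, and it is shown because the metal response element is the element that the family is known for. The 250 bases before the start of each gene, plus strand, GRCh38.p14, are printed with the core of this element in capitals, searched as TGCACNC or TGCGCNC on both strands.

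MT2A, chr16:56608334-56608583: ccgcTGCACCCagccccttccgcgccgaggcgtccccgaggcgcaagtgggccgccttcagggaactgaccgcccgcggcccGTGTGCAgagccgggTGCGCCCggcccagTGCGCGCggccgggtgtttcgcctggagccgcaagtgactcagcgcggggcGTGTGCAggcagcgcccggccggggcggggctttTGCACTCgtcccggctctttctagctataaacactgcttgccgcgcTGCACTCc

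MT1X, chr16:56682220-56682469: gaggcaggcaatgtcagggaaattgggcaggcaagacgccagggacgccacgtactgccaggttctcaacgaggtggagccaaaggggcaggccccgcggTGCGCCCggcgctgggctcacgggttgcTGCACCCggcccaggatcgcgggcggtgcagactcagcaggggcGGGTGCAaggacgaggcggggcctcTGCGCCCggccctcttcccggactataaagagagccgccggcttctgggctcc

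MT1B, chr16:56651636-56651885: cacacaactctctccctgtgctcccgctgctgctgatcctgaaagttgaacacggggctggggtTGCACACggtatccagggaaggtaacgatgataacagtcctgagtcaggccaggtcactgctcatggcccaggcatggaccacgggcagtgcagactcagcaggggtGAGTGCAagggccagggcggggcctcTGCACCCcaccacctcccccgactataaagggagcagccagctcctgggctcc

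MT4, chr16:56564823-56565072: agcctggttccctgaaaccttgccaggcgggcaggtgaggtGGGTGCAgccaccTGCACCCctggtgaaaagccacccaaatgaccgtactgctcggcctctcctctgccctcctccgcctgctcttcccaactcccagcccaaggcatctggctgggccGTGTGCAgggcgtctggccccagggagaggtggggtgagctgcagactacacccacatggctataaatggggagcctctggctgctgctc

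The MT2A window held 7 matches, the MT1X window 4, and the MT1B and MT4 windows 3 each, none of which overlapped. Among 35116 RefSeq windows of the same length, 24.8% held at least 1 match, 1.58% at least 3, 0.370% at least 4 and 0.0313% at least 7. MT1H, which is named only by a shared probe, had 8 matches, and 0.0171% of windows had as many. All 4 printed windows held the letters TATAAA on the plus strand, as did 6.80% of windows. The letters TGACTCA, the core of an AP-1 site, occurred on either strand in the MT2A and MT1B windows and in 4.20% of all windows. These matches describe the letters in the windows and are not measured binding sites.

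In HepG2 cells, the MT1 and MT2A probes were all higher with GSK343, and MT3 and MT4 were not. MT1B, MT1X, MT1A and MT1E were at least 1 log2 unit higher, which is 4 of 7 genes, where 0.648% of all probes were higher by this size. No gene of the 7 was lower by this size, where 2.54% of all probes were. Among probes in the brightest 25% of either HepG2 array, 0.424% were higher by at least 1 log2 unit. MT1A and MT1B entered this set only through the GSK343 array, since their control readings of 2140 and 405 were below the limit of 2813. For these genes the share is therefore not a background matched for brightness. The median over the 7 genes was 1.26 log2 units, beside -0.02 over all probes. In bulk RNA, more cells that express a gene and more RNA per cell cannot be told apart.

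MT1B, an MT1 subtype, read 405 in HepG2 control and 9037 in HepG2 GSK343 cells, and 86.3 in A549 control and 114 in A549 GSK343 cells. It was thus near the array's median in HepG2 control cells, bright after GSK343 and dim on both A549 arrays. The difference was 4.48 log2 units (22.3-fold) in HepG2, the second highest of 31634 probes (rank 2), and 0.41 log2 units in A549, within the spread between probes of a gene. The HepG2 control value was below that array's median of 475.8 and carries no detection call, so the size of the fold rests on a dim reading.

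MT1X read 39038 and 134258 in HepG2 control and GSK343 cells, and 19504 and 22135 in A549 control and GSK343 cells. The order of its levels was HepG2 with GSK343, HepG2 control, and then the A549 arrays, whose difference of 0.18 log2 units was within the spread. In HepG2 the difference was 1.78 log2 units (3.44-fold), which is rank 28 of all probes.

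MT1A read 2140 and 6852 in HepG2 control and GSK343 cells, and 2327 and 2744 in A549 control and GSK343 cells. Both controls and the treated A549 cells were thus close to each other, and the HepG2 GSK343 array stood above the other arrays. The difference was 1.68 log2 units (3.20-fold) in HepG2 and 0.24 log2 units in A549. In real-time PCR of HepG2 cells at the same dose and time, the published study reported induction of MT2A and of most MT1 subtypes. MT1A and MT1F were its exceptions among the MT1 subtypes, and it reported no induction of MT3 or MT4. How much the MT1A probe reads of other members was not tested.

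MT1E read 70377 and 168295 in HepG2 control and GSK343 cells, and 413 and 333 in A549 control and GSK343 cells. This gene showed the widest separation of the lines among the 7, with both HepG2 arrays far above both A549 arrays. With GSK343 it differed by 1.26 log2 units (2.39-fold) in HepG2 and by -0.31 log2 units in A549, the latter within the spread.

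MT2A, the single functional MT2 gene, read 100153 and 175012 in HepG2 control and GSK343 cells, and 82167 and 74994 in A549 control and GSK343 cells. It was near the top of the range on every array, where 200 probes were brighter in HepG2 control and 267 in A549 control cells. The difference was 0.81 log2 units (1.75-fold) in HepG2, above the spread and below 1 log2 unit, and -0.13 log2 units in A549, a sign that turned to 0.02 after quantile normalization. On the HepG2 GSK343 array 96 probes were brighter than MT2A, 104 brighter than MT1E and 147 brighter than MT1X, and the brightest probe read 520806. Whether such bright spots read the full size of a change was not tested.

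**Figure D1:**
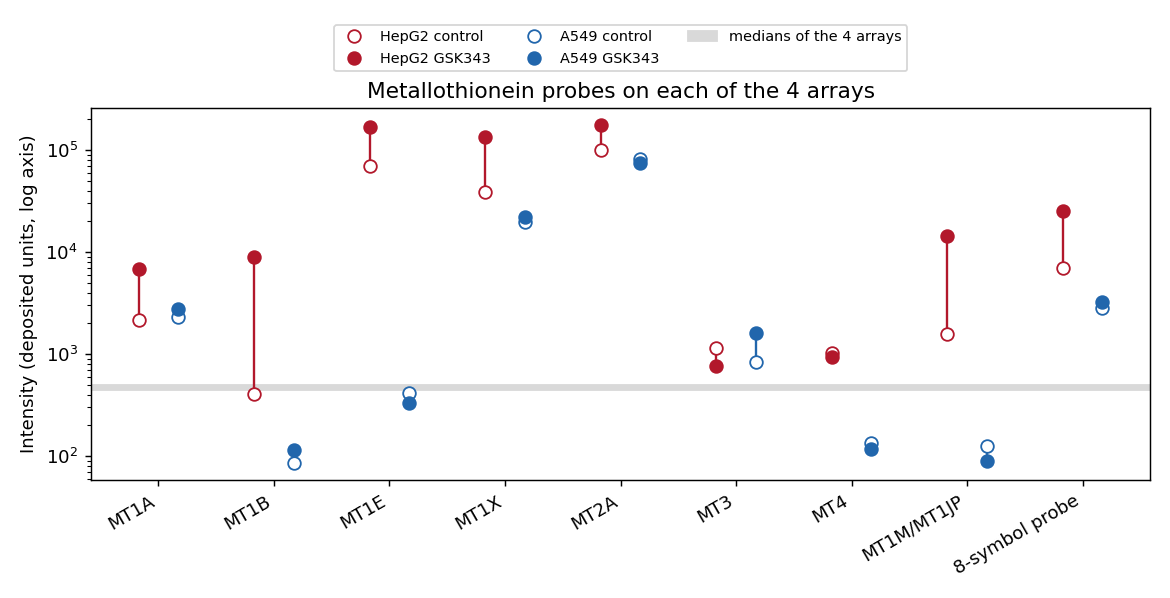
Intensity in deposited units on a log axis for the 7 single-gene probes and the 2 shared metallothionein probes, with 1 array per point, open circles for control, filled circles for GSK343, HepG2 in red and A549 in blue, and a line joining control and GSK343 of a line. The MT1 and MT2A probes stand higher with GSK343 in HepG2 (MT1B from 405 to 9037), while A549 pairs lie close together except MT3 (840 and 1626), and MT1E is at 70377 in HepG2 control against 413 in A549 control cells.

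MT3 read 1158 and 763 in HepG2 control and GSK343 cells, and 840 and 1626 in A549 control and GSK343 cells. Treated A549 cells had the highest level and treated HepG2 cells the lowest. The differences were -0.60 log2 units in HepG2 and 0.95 log2 units in A549, both larger than the spread and both below 1 log2 unit in size. MT4 read 1018 and 929 in HepG2 control and GSK343 cells, and 134 and 117 in A549 control and GSK343 cells. Its differences of -0.13 and -0.19 log2 units were within the spread in both lines.

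The probe that MT1M shares with MT1JP, a pseudogene, read 1587 and 14396 in HepG2 control and GSK343 cells, and 125 and 89.0 in A549 control and GSK343 cells. Like MT1B, it was dim in A549 and bright in treated HepG2 cells. The difference was 3.18 log2 units (9.07-fold) in HepG2, rank 10 of all probes, and -0.49 log2 units in A549, slightly more than the spread. The probe that names MT1A, MT1B, MT1E, MT1H, MT1X, MT2A and the family entries MT1IP and MT1L together read 6959 and 25363 in HepG2 control and GSK343 cells, and 2803 and 3223 in A549 control and GSK343 cells. Its differences were 1.87 and 0.20 log2 units. MT1F and MT1G were named by no probe used here, and MT1H and MT1M only by these shared probes. Metallothionein transcripts are close in sequence, and how much each probe reads of other members was not tested.

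In A549 cells 0 of 7 genes differed by 1 log2 unit or more in either direction, where 1.58% of all probes were higher and 0.764% lower. The median over the 7 genes was 0.18 log2 units, beside 0.04 over all probes. MT3 alone passed the spread between probes, and the other 6 genes lay between -0.31 and 0.41 log2 units. The share of all probes past this spread was not counted. The central 95% of all probes lay between -0.67 and 0.88 log2 units. Of the A549 probes past 1 log2 unit 67.3% were higher, against 48.8% after median centring, and no metallothionein gene was among the higher ones with either scaling.

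**Figure D2:**
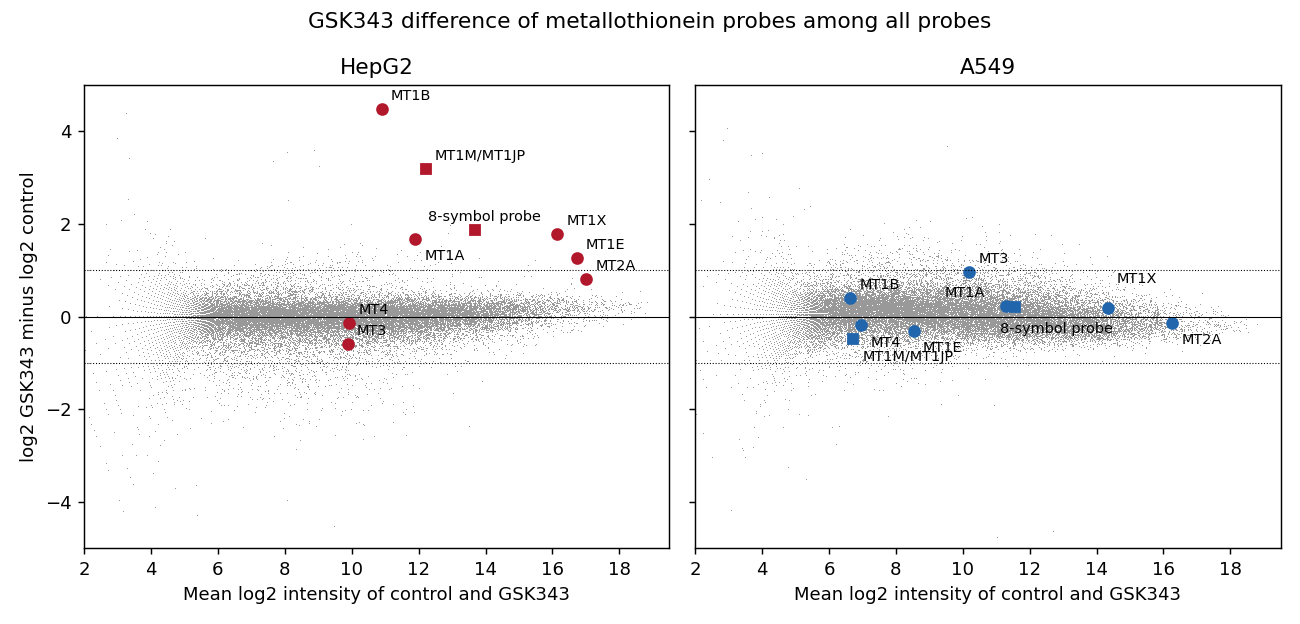
GSK343 difference (log2 GSK343 minus log2 control, vertical axis) against the mean log2 intensity of both arrays (horizontal axis) in HepG2 (left, red) and A549 (right, blue), with all probes as grey dots, single-gene metallothionein probes as circles, shared ones as squares and dotted lines at 1 log2 unit either way. In HepG2 the MT1 and MT2A probes lie above most other probes of like brightness, from 0.81 to 4.48 log2 units, and in A549 all lie within 1 log2 unit of 0. Outside the frame, beyond 5 log2 units in size, are 7 probes in HepG2 and 4 in A549.

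The difference in HepG2 minus the difference in A549 was at least 1 log2 unit for 4 of 7 genes, where 1.38% of all probes passed this size. It was 4.07 log2 units for MT1B, 1.60 for MT1X, 1.57 for MT1E, 1.44 for MT1A and 0.94 for MT2A. MT3 was opposite, with -1.56 log2 units, a direction in which 6.28% of all probes lay past 1 log2 unit, and MT4 had 0.06 log2 units. The SD between probes of a gene was 0.62 log2 units for this quantity, which the MT1, MT2A and MT3 values exceeded. How many of all probes exceeded it was not counted, and their central 95% lay between -1.44 and 0.84 log2 units. With 1 array per condition, a difference between the responses of the lines cannot be told apart from an effect of a single array.

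A549 control cells had lower metallothionein signals than HepG2 control cells for 6 of the 7 genes, and MT1A was the exception. The median of this contrast over all probes was -0.09 log2 units, so most probes were lower too, and the share was not counted. MT2A and MT3 were lower only within the spread between probes. At least 1 log2 unit lower were MT1E, MT4, MT1B and MT1X, which is 4 of 7, where 12.8% of all probes were lower by this size. The control arrays used here also enter the GSK343 differences above. MT1E was lower in A549 by the widest measured margin of the 7, with -7.41 log2 units between 70377 and 413. The A549 value was below the array's median of 460.1 and was not shown to be above background, so the size of this difference is not defined by these values. MT4 differed by -2.93 log2 units, MT1B by -2.23 and MT1X by -1.001, while MT3 had -0.46, MT2A -0.29 and MT1A 0.12 log2 units. For this contrast the SD between probes of a gene was 0.92 log2 units, so that MT1A, MT2A and MT3 stayed within the spread and MT1X lay close to it. The MT1M and MT1JP probe differed by -3.66 log2 units and the probe of 8 family entries by -1.31 log2 units. In A549 control cells MT1B, MT1E, MT4 and the MT1M and MT1JP probe, at 86.3, 413, 134 and 125, lay within the range of the liver marker probes there, 37.0 to 1225 with a median of 305. Each probe has its own background, and the deposited values carry no detection call, so the contrasts of these probes give a direction and no exact size.

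Between the treated cells of the lines, HepG2 GSK343 cells exceeded A549 GSK343 cells 6.07-fold for MT1X, 2.50-fold for MT1A and 2.33-fold for MT2A, whose A549 values were above the array's median. For MT3 the order was turned, with a ratio of 0.469. The MT1E, MT1B and MT1M and MT1JP probes were also brighter in treated HepG2 than in treated A549 cells, and no fold is given for them, since their A549 values of 333, 114 and 89.0 were below the array's median of 498.8.

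**Figure D3:**
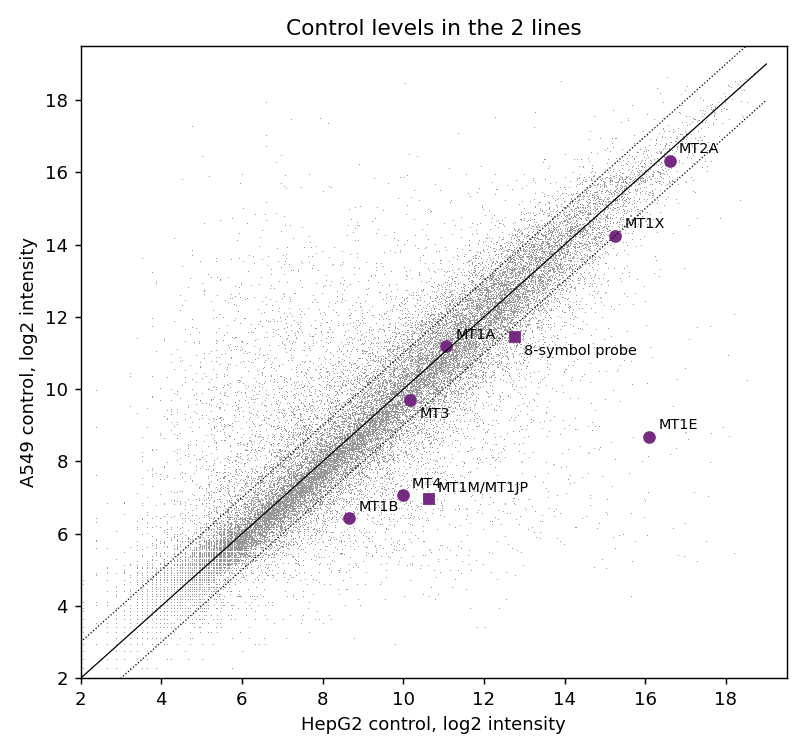
Log2 intensity in A549 control (vertical axis) against HepG2 control (horizontal axis), with all probes as grey dots, single-gene metallothionein probes as purple circles, shared ones as squares, equality as a solid line and 1 log2 unit either way as dotted lines. MT1A, MT2A and MT3 lie near equality (0.12, -0.29 and -0.46 log2 units), and MT1E lies farthest below it (-7.41 log2 units).

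Along chromosome 16, MT4 and MT3 come first in the cluster, and MT2A, MT1E, MT1A, MT1B and MT1X follow in this order. The HepG2 differences were thus below 0 for the first pair of genes and above 0 for each later gene with its own probe. Of the first pair, MT4 at -0.13 log2 units was within the spread, so only MT3 was lower by more than it. Only 7 of the 16 entries had a probe of their own. Of 10 listed neighbours outside the family 9 were measured, and their median difference was 0.06 log2 units in HepG2 and -0.09 log2 units in A549. On the MT4 side, GNAO1 (0.05 log2 units), NUDT21 (-0.22), OGFOD1 (-0.18) and BBS2 (0.24) stayed within the spread in HepG2. On the MT1X side, NUP93 (0.06), SLC12A3 (-0.01) and CETP (0.15) did so too. HERPUD1, a membrane protein of the endoplasmic reticulum that helps dispose of misfolded proteins, read 43620 and 90422 in HepG2 and 33981 and 31017 in A549 control and GSK343 cells. Its difference was 1.05 log2 units in HepG2 and -0.13 in A549, and it was the only measured neighbour at least 1 log2 unit higher, where 0.458% of all genes were. The immune regulator NLRC5 had a mean of 0.61 log2 units over its probes in HepG2, with 1.17 for one probe and 0.06 for a dimmer one.

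**Figure D4:**
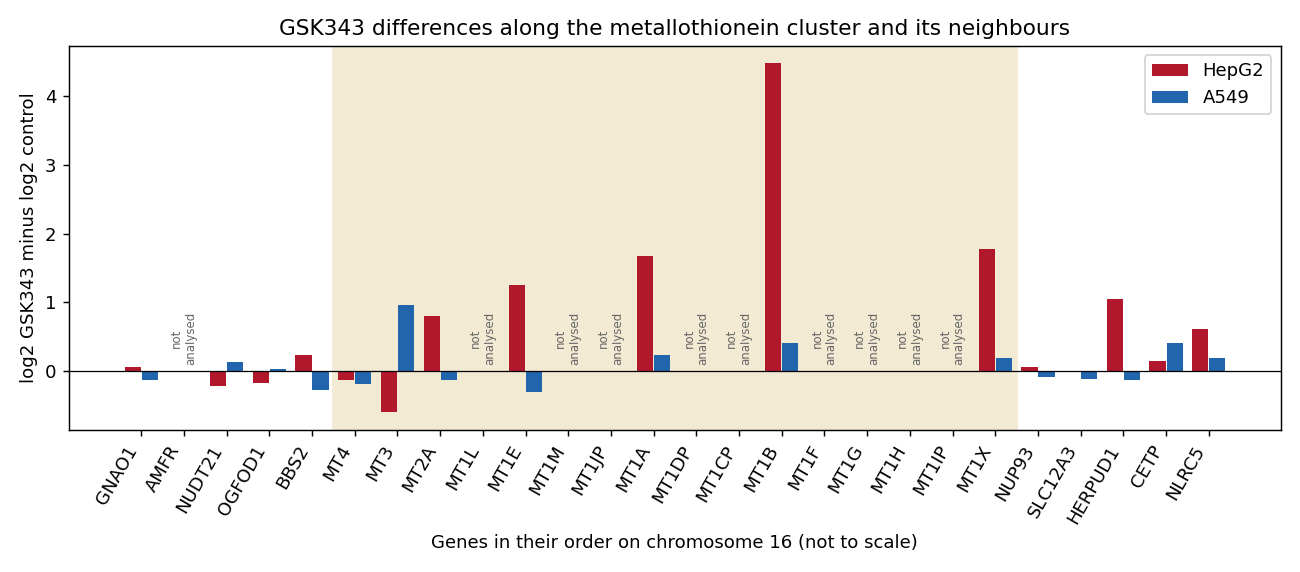
GSK343 difference (log2 GSK343 minus log2 control) in HepG2 (red bars) and A549 (blue bars) for metallothionein entries (shaded) and their neighbours, in their order on chromosome 16 and not to scale, as the mean over the single-gene probes of a gene. MT4 and MT3 have HepG2 bars below 0, MT2A to MT1X have HepG2 bars from 0.81 to 4.48, and of the neighbours only HERPUD1 reaches 1 (1.05).

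MTF1 itself had a mean difference over its probes of -0.19 log2 units in HepG2 and 0.13 in A549. Of 7 genes in the list of MTF1 and its targets outside the family, 0 were at least 1 log2 unit higher or lower in either line, where 0.458% of all genes were higher and 1.87% lower in HepG2, and 0.932% higher and 0.534% lower in A549. Their median was -0.19 log2 units in HepG2 and 0.13 in A549, beside -0.02 and 0.04 over all genes. Both medians were the values of MTF1 itself, so they are not a separate reading of its targets. In A549 control cells SLC30A10 and HAMP of this list read 26.6 and 38.9, below the array's median. Chosen after their values were seen, SLC30A1, the zinc exporter that MTF1 is best known to induce, had 0.05 and -0.23 log2 units in HepG2 and A549, and GCLC, an enzyme of glutathione synthesis, had -0.68 and -0.84 log2 units. In the other lists of genes that answer to inducers of metallothioneins, 0 genes passed 1 log2 unit in either line. The median was 0.10 log2 units in HepG2 and -0.02 in A549 for 9 heat shock and oxidant genes, of which HMOX1, the heme oxygenase, had -0.10 and 0.66. It was -0.08 and 0.13 for 8 glucocorticoid receptor targets, of which FKBP5, a cochaperone of that receptor, had -0.26 and 0.09. It was -0.14 and 0.12 for 8 acute phase genes, of which SAA1, a serum amyloid protein, had 0.23 and -0.25. Some probes of these lists were dim. The HepG2 median of the heat shock and oxidant genes was the value of NQO1, whose probe read between 59.6 and 78.2. The probes of SAA2 read 42.7 or less on every array. Whether such dim probes read a change was not tested. EZH2, the target of GSK343, had differences of -0.20 and 0.02 log2 units in HepG2 and A549. Its partners in the complex SUZ12 and EED had 0.18 and 0.32 in HepG2 and -0.25 and -0.13 in A549. The EED values are means over discordant probes. A dim probe had 0.64 in HepG2 and 0.16 in A549, and a brighter one had 0.01 and -0.42.

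Over the HepG2 difference, the A549 difference and the contrast of the controls, the median of MT1A, MT1B, MT1E, MT1X and MT2A was 1.68, 0.18 and -1.001 log2 units. Among 11694 other single-gene probes at or above the median on all 4 arrays, the 3 with the smallest Euclidean distance to this pattern were those of RGS6, ACSS2 and ACSM4. RGS6, a regulator of G-protein signalling, lay 0.56 log2 units away with differences of 1.38 in HepG2 and 0.52 in A549, but its other probe had -0.03 in HepG2. ACSS2, which makes acetyl-CoA from acetate, lay 0.66 log2 units away with 1.14 and -0.18, and its other probe had 1.15 in HepG2. ACSM4, a medium-chain acyl-CoA synthetase, lay 0.70 log2 units away with 1.52 and 0.26 from a single probe. Of the family, MT1X lay 0.10 log2 units from this pattern, MT1A 1.12, MT2A 1.17, MT1B 3.07 and MT1E 6.45. MT1X itself supplied the A549 and control medians of the pattern, and the other 3 genes were picked as the nearest of 11694 probes. The distances of the members therefore cannot be set against theirs. The distance of MT1E came chiefly from the contrast of the controls, and that of MT1B chiefly from the HepG2 difference.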

How the data were processed

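The deposited table holds linear intensity of the Cy5 channel as processed by the authors, for 31741 probes on 4 arrays, and the scanner, background correction and normalization are not given in the sources used here. RNA had been amplified to amino-allyl antisense RNA and coupled to the dye. Genes were assigned from the annotation of the platform, in which 24740 probes named a single gene, 977 several and 6024 none. Values of 0 or less were left out, and differences were taken on the log2 scale without further scaling. Counts used a size of 1 log2 unit. Upstream windows were the first 250 bases of the promoter sequences of RefSeq (GRCh38.p14).

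The members and all gene lists were chosen with earlier results of these data known. All metallothionein probes, the neighbours and PRC2 genes are named, of other lists the first gene or those past 1 log2 unit, and the 3 most alike genes. SLC30A1 and GCLC were named outside this rule, after their values were seen. Probes named for their dim level or as the source of a median were also outside it. Alternatives were median centring, quantile normalization, an offset of 50, a filter at the array's median, a size of 1.5 log2 units and counting shared probes. The filter used the brighter array of a pair, so MT1B stayed in the HepG2 count only through its GSK343 reading. The calculation was tested on simulated data. Python 3.11.15 with numpy 2.4.6, pandas 2.3.3 and matplotlib 3.10.9 was used. Real-time PCR and protein data were not analysed here.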

Additional observations from a re-analysis of the deposited data

Results flagged for a closer look

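The following probes differed in opposite directions in the 2 cell lines, each line with 1 array per condition, and the difference between the lines was not tested. The flag goes by sign alone, whatever the size. The share of all probes with opposite signs was not counted, so the flag does not show a trait of the family. MT1E had 1.26 log2 units in HepG2 and -0.31 in A549. MT2A had 0.81 in HepG2 and -0.13 in A549, and the A549 value was 0.02 after quantile normalization. MT3 had -0.60 in HepG2 and 0.95 in A549. The probe of MT1M and MT1JP had 3.18 in HepG2 and -0.49 in A549. Of the A549 values, those of MT1E and MT2A were within the spread between probes of one gene.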

How the results depend on the processing

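Counting the shared metallothionein probes raised the median HepG2 difference from 1.26 to 1.68 log2 units. With the filter at the array's median, which leaves 4 genes, 2 instead of 4 genes had a HepG2 difference at least 1 log2 unit above the A549 difference. The other 42 counts and medians, and all 108 values of single probes under the scalings and the offset, stayed within the spread or within 1.5 times the count. MT1X lay at the limit of 1 log2 unit between the controls, and 3 instead of 4 genes passed it with median centring (MT1X at -0.96) or the offset. With the filter at the array's median, 3 of the 6 genes left passed it. MT1B was dropped there because it was below the median on both control arrays. Over all probes, 437 had a HepG2 difference at least 1 log2 unit above the A549 difference, against 903 with median centring and 664 with quantile normalization. MT1B, MT1E, MT4 and the MT1M and MT1JP probe were below the array's median in A549, where signal over background limits their values. No paired analysis was possible because the labels carry no replicate numbers and each line had 1 array per condition. A fit of an effect shared by the 2 lines was not run.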
